A study of Mus musculus with 12 samples.

Results

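The SLC25 mitochondrial carriers were examined in mouse liver RNA from 4 groups. Members were all genes whose symbol is Slc25a followed by a number, which gave 47 of the 53796 genes listed. Of these, 36 reached 1 FPKM (fragments per kilobase of transcript, scaled to the mapped fragments of the library) in at least 3 libraries and were tested, and 11 did not. The groups, with 3 libraries each, were wild-type sham livers (Sham), wild-type livers (WT), livers with the RIPK1 D138N mutation (RIPK1_D138N) and livers labelled TNFR1/2 KO (TNFR12_KO). Sham alone carries a sham label. The title of the series names ischemia, an interruption of blood supply, and the WT, RIPK1_D138N and TNFR12_KO livers were read as its ischemia arm. The labels give no strain, age or time after the operation, and they do not say whether the libraries of a group come from separate animals, so p-values measure only the spread between these libraries. Neither mutant has a sham group, so for both of them a difference present before the operation and a difference in response cannot be told apart.

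SLC25 proteins carry metabolites across the inner mitochondrial membrane, with a few members in other membranes. Each is built from repeats of a shared fold and alternates between states open to the cytosol and to the matrix, often exchanging one substrate for another. In hepatocytes the family links cytosolic and mitochondrial steps of ATP supply, fatty acid oxidation, the urea cycle, gluconeogenesis and lipid synthesis. TNF, an inflammatory cytokine, signals through TNFR1 and TNFR2, the kinase RIPK1 acts below TNFR1, and the D138N change is known to remove its kinase activity.

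Several properties of the libraries bear on the carriers. The FPKM of all genes summed to 649373 to 750501 in Sham, 288934 to 303514 in WT, and 441296 to 518580 in the mutant libraries. FPKM gives no read count, and from the step between low values 1 FPKM per kilobase corresponded to about 11 to 59.5 fragments. Sham libraries b and c had the fewest fragments per FPKM. In Xist, the X-inactivation transcript, RIPK1_D138N replicates 2 and 3 stood apart at 20.1 and 23.4 FPKM, against at most 0.0824 FPKM elsewhere. Their Y-linked Ddx3y was at 0.0176 and 0 FPKM. Tnfrsf1a, the gene of TNFR1, was listed at 15.3 to 21.9 FPKM in the libraries labelled TNFR12_KO, 59.3 to 88.6 FPKM in Sham, 32.3 to 38.1 FPKM in WT and 18.9 to 21 FPKM in RIPK1_D138N. The TNFR12_KO range thus lay below Sham and WT and overlapped RIPK1_D138N. Tnfrsf1b, the gene of TNFR2, was listed at 3.96 to 9.31 FPKM in TNFR12_KO, a range that overlapped Sham (3.83 to 8.61 FPKM), WT (8.13 to 10.2 FPKM) and RIPK1_D138N (5.04 to 6.04 FPKM). Whether the deleted exons lie within the counted part cannot be seen in these values. Group names below are the labels.

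The hepatocyte markers were present but unequal between groups. Their summed level ran from 42640 to 55190 FPKM in Sham, 9124 to 15000 FPKM in WT, 36540 to 40350 FPKM in RIPK1_D138N and 28590 to 40850 FPKM in TNFR12_KO. Of the 10 markers, 9 of 9 tested were lower in WT than in Sham, among them Ttr, Cyp2e1 and Cps1, which is also a urea cycle enzyme. Alb, albumin, was listed at 0 in every library, and Serpina1c at 0 in every TNFR12_KO library, where a failed estimate is possible. In bulk liver, fewer cells of a type and less RNA per cell cannot be told apart, and the part of the hepatocyte markers in the carrier differences was not tested.

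In Sham, Slc25a47, a carrier known mainly from liver whose substrate is disputed, was the highest member by mean FPKM, followed by Slc25a5, Slc25a39, Slc25a3, Slc25a20 and Slc25a15. Summed over all 47 members, the level was 2628 ± 113 FPKM in Sham, 954 ± 54.3 FPKM in WT, 1738 ± 98.4 FPKM in RIPK1_D138N and 1989 ± 258 FPKM in TNFR12_KO (SD, n = 3). Without Slc25a47 it was 1673 ± 109.7 FPKM in Sham, 589 ± 13.3 FPKM in WT, 1281 ± 44.96 FPKM in RIPK1_D138N and 1428 ± 152 FPKM in TNFR12_KO (SD, n = 3). As a share of all FPKM, the family took 0.356 to 0.385% in Sham, 0.316 to 0.335% in WT, 0.328 to 0.355% in RIPK1_D138N and 0.336 to 0.459% in TNFR12_KO. The shares of WT and RIPK1_D138N overlapped. All FPKM here lack Alb and Apoe, both listed at 0 in every library, and in TNFR12_KO also Serpina1c. Every WT library lay below every Sham library on both scales. Every RIPK1_D138N library also lay below Sham on both, by little in share, while the TNFR12_KO shares lay on either side of the Sham range. With 3 libraries against 3, an exact permutation test (two-sided) cannot give a p under 0.1, so the sums are given as values.

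The 11 members that were not tested stayed below 1 FPKM in every library, with a highest value of 0.923 FPKM. They are Slc25a2, Slc25a18, Slc25a24, Slc25a27, Slc25a31, Slc25a35, Slc25a36, Slc25a41, Slc25a43, Slc25a53 and Slc25a54. Slc25a41 and Slc25a54 were listed at 0 in all 12 libraries. Slc25a24, an ATP-Mg/phosphate carrier, was at 0.491, 0.281 and 0.923 FPKM in WT, against 0.238, 0.129 and 0.103 FPKM in Sham, so that every WT library was above every Sham library. Slc25a18, a glutamate carrier, and Slc25a31, an ADP/ATP carrier of the testis, did not exceed 0.0903 FPKM anywhere.

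Upstream sequence is shown for the acylcarnitine (Slc25a20), aspartate-glutamate (Slc25a13), ornithine (Slc25a15) and ADP/ATP (Slc25a5) carriers, which were all lower in WT than in Sham, so that the letters searched can be seen. Sequences are from the RefSeq promoter table on GRCm38.p6 and read 5′ to 3′ on the gene's strand, without any annotated exon base. Capitals mark CCGGAAGT (bound by ETS factors), ACGTG (the core of the hypoxia response element), CACGTG (an E-box, which contains the letters of the former) and CCAAT. The Slc25a5 window holds none of the motifs searched. The Slc25a15 stretch shown precedes an inner start and lies within the annotated gene. A second listed start lies farther out, and its stretch (chr8:22398622-22398720), outside the gene, is not shown. The window of that start holds none of the motifs searched.
Slc25a20 (chr9:108661886-108662087, plus strand): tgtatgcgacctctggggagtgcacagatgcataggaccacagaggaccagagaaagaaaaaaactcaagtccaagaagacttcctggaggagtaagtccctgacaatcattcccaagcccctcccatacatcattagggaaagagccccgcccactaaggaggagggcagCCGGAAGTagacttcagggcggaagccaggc
Slc25a13 (chr6:6217174-6217423, minus strand): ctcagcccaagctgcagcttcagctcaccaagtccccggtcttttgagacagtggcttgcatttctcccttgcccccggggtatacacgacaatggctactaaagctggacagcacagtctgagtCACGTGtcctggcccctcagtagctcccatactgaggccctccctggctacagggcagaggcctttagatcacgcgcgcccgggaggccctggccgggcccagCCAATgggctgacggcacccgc
Slc25a15 (chr8:22398278-22398439, minus strand): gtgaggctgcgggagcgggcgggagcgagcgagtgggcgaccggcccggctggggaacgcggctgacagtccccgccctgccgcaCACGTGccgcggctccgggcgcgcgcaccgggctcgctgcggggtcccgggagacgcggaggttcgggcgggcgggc
Slc25a5 (chrX:36795347-36795596, plus strand): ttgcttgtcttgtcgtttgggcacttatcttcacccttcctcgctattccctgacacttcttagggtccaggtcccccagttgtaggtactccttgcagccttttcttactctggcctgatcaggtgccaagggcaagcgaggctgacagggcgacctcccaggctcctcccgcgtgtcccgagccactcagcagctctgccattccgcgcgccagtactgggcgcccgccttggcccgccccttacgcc

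Both strands of the 250 bases before each start were searched in 32851 promoters, 46 of which belong to 36 members with an entry. CACGTG was found in 8 of 46 member promoters, of 7 members (Slc25a1, Slc25a13, Slc25a14, Slc25a15, Slc25a31, Slc25a33 and Slc25a36), and in 6.02% of all promoters. ACGTG was found in 12 member promoters of 11 members, against 16.6% of all. CCAAT was found in 21 member promoters of 18 members, against 33.9% of all. CCGGAAGT was found only upstream of Slc25a20 among members, against 2.88% of all promoters. TGACGTCA, the cAMP response element, was found upstream of Slc25a25 and Slc25a36, against 1.55% of all. The palindromic NRF1 site, the direct repeat bound by PPAR and RXR, and CAAAGTCCA (HNF4A) were in no member window, and in 0.782%, 0.033% and 0.384% of all. These are matches of letters in a short window and say nothing of binding.

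The comparison of WT with Sham addresses the response of wild-type liver to ischemia. Most carriers were lower in WT: 27 of the 36 tested fell and 2 rose (adjusted p under 0.05, limma over all genes). Among all 11728 genes tested, 41.9% were lower and 16.4% were higher. Differences are given throughout as differences of group means on the log2(FPKM + 1) scale, with limma's adjusted p. The median difference of the members was -1.03, against -0.36 for all genes. The counts of lower and higher members depended on the scaling between libraries. FPKM sums, which lack Alb and Apoe, differed between groups, and their part in this was not tested. When the libraries were scaled to equal FPKM sums, 11 of 39 members were lower and 8 higher, where 8.8% of all genes were lower and 53.3% higher, and the median was -0.02 against 0.69 for all genes. With median-of-ratios scaling 22 members were lower and 2 higher, where 26.1% of all genes were lower and 28.6% higher. With quantile normalization 20 were lower and 2 higher, where 27% of all genes were lower and 25% higher. Relative to the median of all genes, the members' median stood at -0.67 on the deposited scale and at -0.35 to -0.82 under the 4 other scalings, the last of which removed a trend with transcript length. Members that stayed lower under every one of those scalings included Slc25a5, Slc25a13, Slc25a15, Slc25a20, Slc25a21, Slc25a22, Slc25a23, Slc25a34 (at 1 FPKM or more only in Sham), Slc25a42 and Slc25a45. Slc25a4 and Slc25a37 stayed higher under every one.

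**Figure D1:**
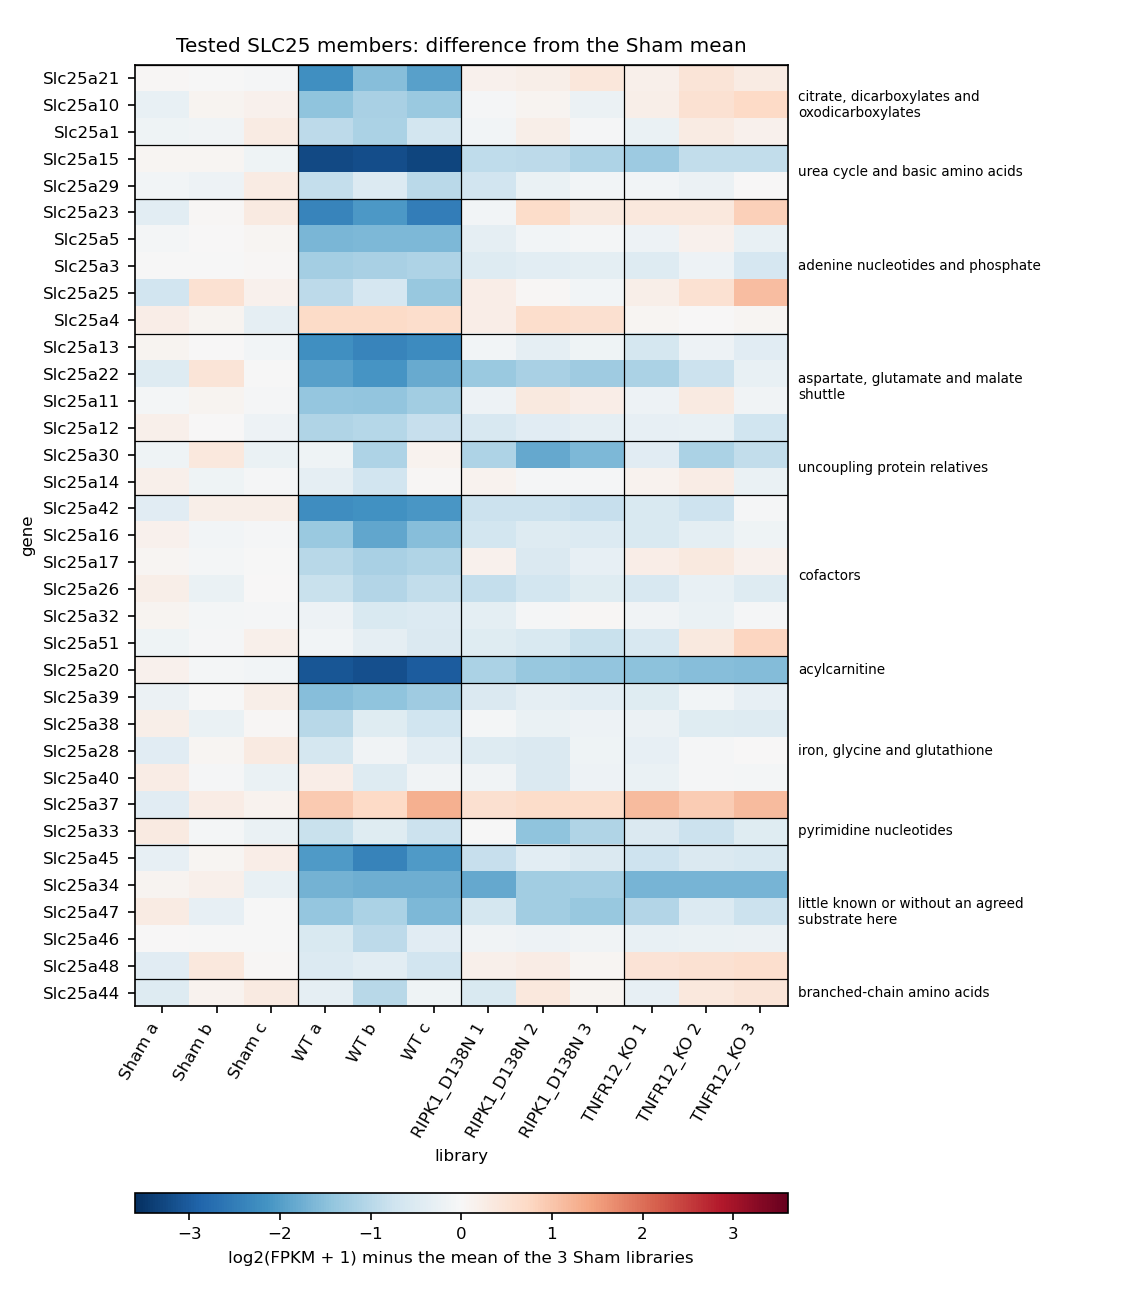
Heat map of tested members (rows, by substrate) in the 12 libraries (columns), coloured by log2(FPKM + 1) minus the mean of the 3 Sham libraries. Blue cells fill the 3 WT columns for most rows, deepest for Slc25a15 and Slc25a20, while Slc25a37 and Slc25a4 are red there.

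The comparisons of each mutant with WT address whether loss of RIPK1 kinase activity or of the TNF receptors alters these levels in the ischemia arm. Both use the same WT libraries and are given side by side. RIPK1_D138N had 21 of 36 members higher than WT and 1 lower, where 29.8% of all genes were higher and 21.9% lower. TNFR12_KO had 22 members higher than WT and 1 lower, where 29.6% of all genes were higher and 17.5% lower. Median differences were 0.62 for the members and 0.11 for all genes in RIPK1_D138N, and 0.71 and 0.14 in TNFR12_KO. Scaled to equal sums, the counts were 11 higher and 9 lower of 39 members in RIPK1_D138N, where 12.9% of all genes were higher and 47.4% lower. In TNFR12_KO they were 15 higher and 5 lower, where 13% of all genes were higher and 43.6% lower. Without the Xist-positive RIPK1_D138N libraries, which leaves 1 library whose spread is assumed to be like that of the other groups, 15 members were higher than WT and 0 lower, where 22% of all genes were higher and 15.6% lower.

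Against Sham, each mutant had fewer members called than WT had. RIPK1_D138N had 12 members lower and 2 higher than Sham, where 22.7% of all genes were lower and 7.51% higher. Without the Xist-positive libraries 5 were lower and 0 higher, where 6.54% of all genes were lower and 2.59% higher. TNFR12_KO had 7 lower and 2 higher, where 18.1% of all genes were lower and 7.46% higher. These counts were not tested against that of WT. Median differences of the members, -0.31 and -0.19, lay close to those of all genes, -0.22 and -0.18. The shares called lower, 12 and 7 of 36, are of the size of the background in TNFR12_KO and somewhat above it in RIPK1_D138N.

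**Figure D2:**
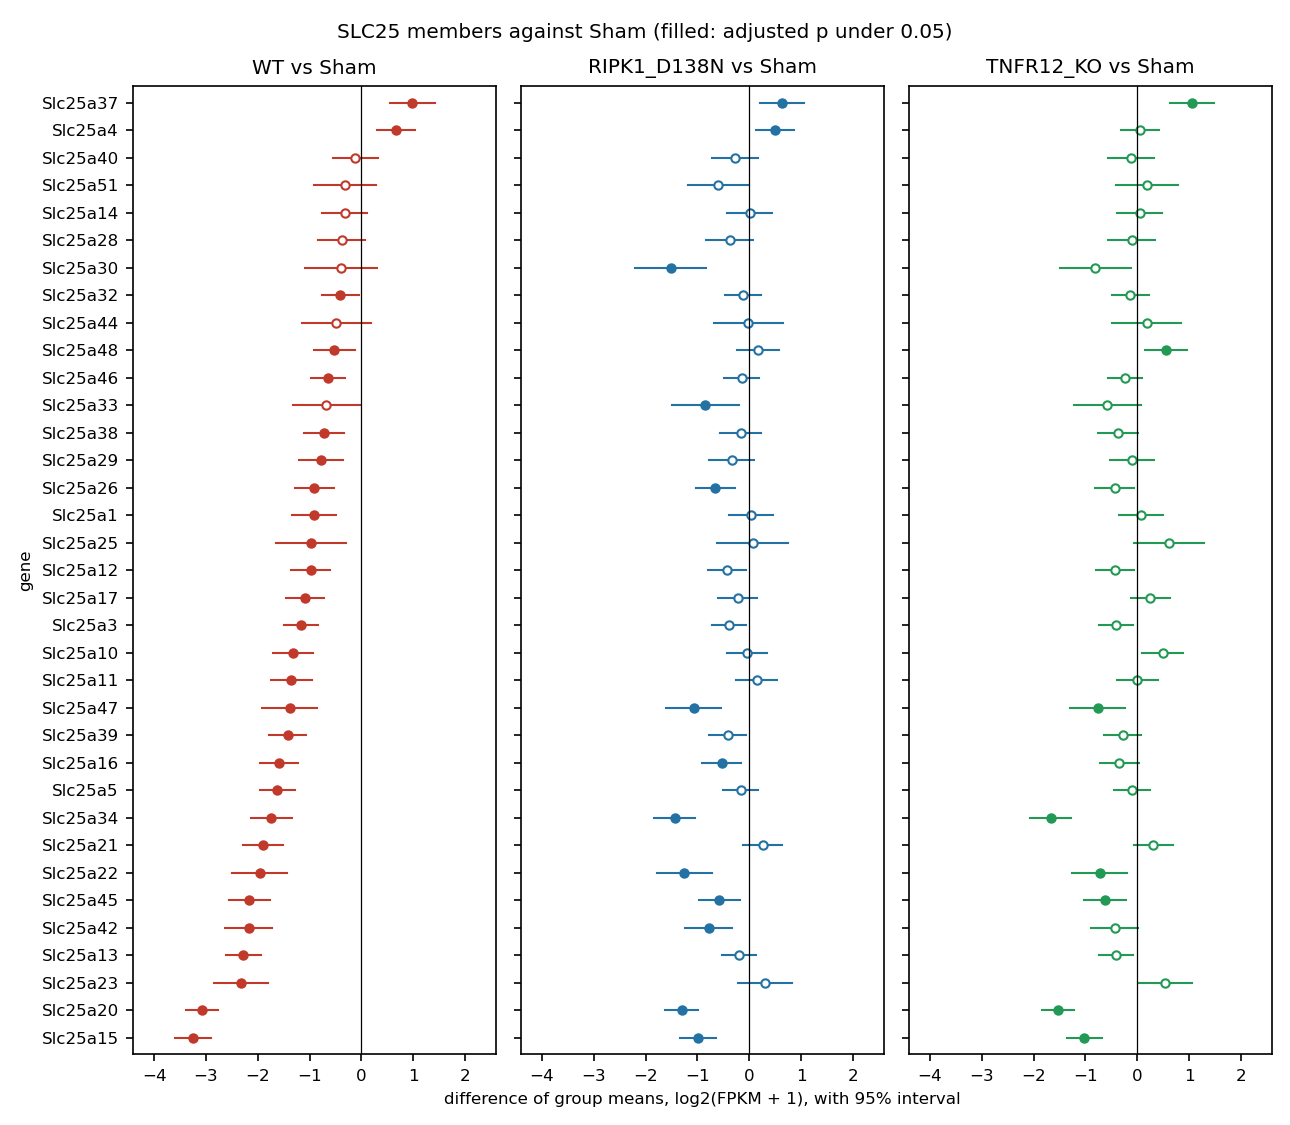
Differences from Sham for tested members in WT, RIPK1_D138N and TNFR12_KO, as group means on the log2(FPKM + 1) scale with 95% intervals, ordered by the WT difference and filled where the adjusted p was under 0.05. Among the members drawn, Slc25a15 lies farthest left in the WT panel, Slc25a30 in the RIPK1_D138N panel and Slc25a34 in the TNFR12_KO panel, while Slc25a37 lies right of 0 in every panel.

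Between the mutants, 0 of 36 members differed by limma after adjustment in either direction, where 0.350% of all genes were higher in RIPK1_D138N and 0.580% lower. At an unadjusted p under 0.05 there were 5: Slc25a10, Slc25a17, Slc25a30 and Slc25a51 with lower means in RIPK1_D138N, and Slc25a4 with a higher mean. Their adjusted p ran from 0.221 to 0.387, and a p that misses the threshold does not show that the mutants had equal levels. Leaving out 1 library gave 1 call in each of 2 fits, Slc25a17 without RIPK1_D138N replicate 1 and Slc25a51 without TNFR12_KO replicate 1. In the former fit, which kept only the Xist-positive libraries of RIPK1_D138N, 274 of 11662 genes were higher in RIPK1_D138N and 310 lower. In the latter 42 of 11648 were higher and 70 lower.

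Carriers of adenine nucleotides and phosphate supply the matrix with ADP and phosphate and export ATP. Of 9 members 5 were tested, and in WT 4 fell and 1 rose against Sham. Their summed level was 686 ± 54.4 FPKM in Sham, 260.1 ± 12.2 FPKM in WT, 604 ± 34.9 FPKM in RIPK1_D138N and 669 ± 67.8 FPKM in TNFR12_KO (SD, n = 3). Slc25a5 (chrX:36795651-36798807, plus strand), the main ADP/ATP exchanger of liver, stood at 346, 369 and 383 FPKM in Sham, 117, 119.7 and 118 FPKM in WT, 293, 340.4 and 346 FPKM in RIPK1_D138N and 323, 405 and 306 FPKM in TNFR12_KO. The WT values were close to each other and below those of every other group. The differences were -1.62 ± 0.16 (SE; adjusted p = 3.58e-06) for WT against Sham, and 1.45 (adjusted p = 1.13e-05) and 1.52 (adjusted p = 9.39e-06) for RIPK1_D138N and TNFR12_KO against WT. Against Sham neither mutant was called, at -0.17 (adjusted p = 0.45) and -0.10 (adjusted p = 0.685). Slc25a3, which carries phosphate and copper, stood at 205, 202 and 209.9 FPKM in Sham, 87.2, 91.5 and 94.3 FPKM in WT, 148, 159 and 162 FPKM in RIPK1_D138N and 149.8, 180.2 and 134 FPKM in TNFR12_KO. Its WT values were below all others, with -1.17 ± 0.15 (SE; adjusted p = 2.98e-05) against Sham, but the sign turned under quantile normalization (0.12) and under scaling to equal sums (0.08). It was higher than WT in RIPK1_D138N by 0.77 (adjusted p = 0.000915) and in TNFR12_KO by 0.75 (adjusted p = 0.00127), differences that turned to -0.23 and -0.17 under quantile normalization.

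Slc25a23 and Slc25a25 are calcium-regulated carriers that exchange ATP-Mg for phosphate and so set the size of the adenine nucleotide pool. Slc25a23 (chr17:57043711-57059863, minus strand) stood at 19.6, 26.9 and 32.8 FPKM in Sham, 4.15, 5.399 and 3.74 FPKM in WT, 24.1, 41.4 and 33.03 FPKM in RIPK1_D138N and 33.99, 33.9 and 47.96 FPKM in TNFR12_KO. Every WT library was below every other library, and the difference from Sham was -2.32 ± 0.24 (SE; adjusted p = 5.2e-06). It was higher than WT by 2.62 (adjusted p = 3.23e-06) in RIPK1_D138N and by 2.86 (adjusted p = 2.09e-06) in TNFR12_KO, the widest difference of any member in each comparison. Neither mutant was called against Sham, at 0.30 (adjusted p = 0.364) and 0.54 (adjusted p = 0.113). Slc25a25 stood at 49.3, 118 and 89.5 FPKM in Sham, 41.4, 53.1 and 30.7 FPKM in WT, 95.6, 82.2 and 75.6 FPKM in RIPK1_D138N and 93.3, 117 and 174 FPKM in TNFR12_KO. Its Sham and WT ranges overlapped, its difference of -0.96 ± 0.31 (SE; adjusted p = 0.0181) lost its call without Sham library b (adjusted p = 0.0838), without Sham library c or without WT library c, and its sign turned under quantile normalization (0.06) and under scaling to equal sums (0.28). Against WT it was 1.03 (adjusted p = 0.015) in RIPK1_D138N, not called without WT library c, and 1.58 (adjusted p = 0.00117) in TNFR12_KO. Under quantile normalization these were 0.21 (adjusted p = 0.63) and 0.81 (adjusted p = 0.0704).

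Slc25a4, the ADP/ATP exchanger of heart and muscle, is named after its values were seen, because it moved against the rest of its group. It stood at 2.699, 2.34 and 1.51 FPKM in Sham, 4.04, 4.07 and 3.84 FPKM in WT, 2.73, 3.89 and 3.73 FPKM in RIPK1_D138N and 2.27, 2.19 and 2.31 FPKM in TNFR12_KO. All WT values exceeded all Sham values, by 0.67 ± 0.17 (SE; adjusted p = 0.00485). TNFR12_KO was lower than WT with a difference of -0.61 (adjusted p = 0.0101), while RIPK1_D138N was not called against WT (-0.17, adjusted p = 0.415). RIPK1_D138N was higher than Sham by 0.49 (adjusted p = 0.0453), a call that was lost without the Xist-positive libraries (0.25, adjusted p = 0.551), without either of them alone, without Sham library b or without Sham library c (0.33, adjusted p = 0.171). Summed muscle markers did not exceed 0.491 FPKM in any library. Stellate cell and fibroblast markers summed to 55.3 to 82.7 FPKM in Sham and 129 to 158 FPKM in WT. They summed to 133 to 152 FPKM in RIPK1_D138N and 56.4 to 89.8 FPKM in TNFR12_KO. Cholangiocyte markers summed to 2.41 to 4.60 FPKM in Sham, 27.1 to 32.1 FPKM in WT, 5.12 to 21.2 FPKM in RIPK1_D138N and 8.28 to 12.4 FPKM in TNFR12_KO. The part of any cell type in the Slc25a4 differences was not tested. The share of Slc25a4 in the sum with Slc25a5 was 0.393 to 0.773% in Sham, 3.15 to 3.33% in WT, 0.924 to 1.13% in RIPK1_D138N and 0.537 to 0.75% in TNFR12_KO. A share within a library is unchanged when the whole library is multiplied by a single factor. It can change under quantile normalization or removal of a length trend, where it was not computed. On the deposited values the 4 ranges overlap only between Sham and TNFR12_KO.

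**Figure D3:**
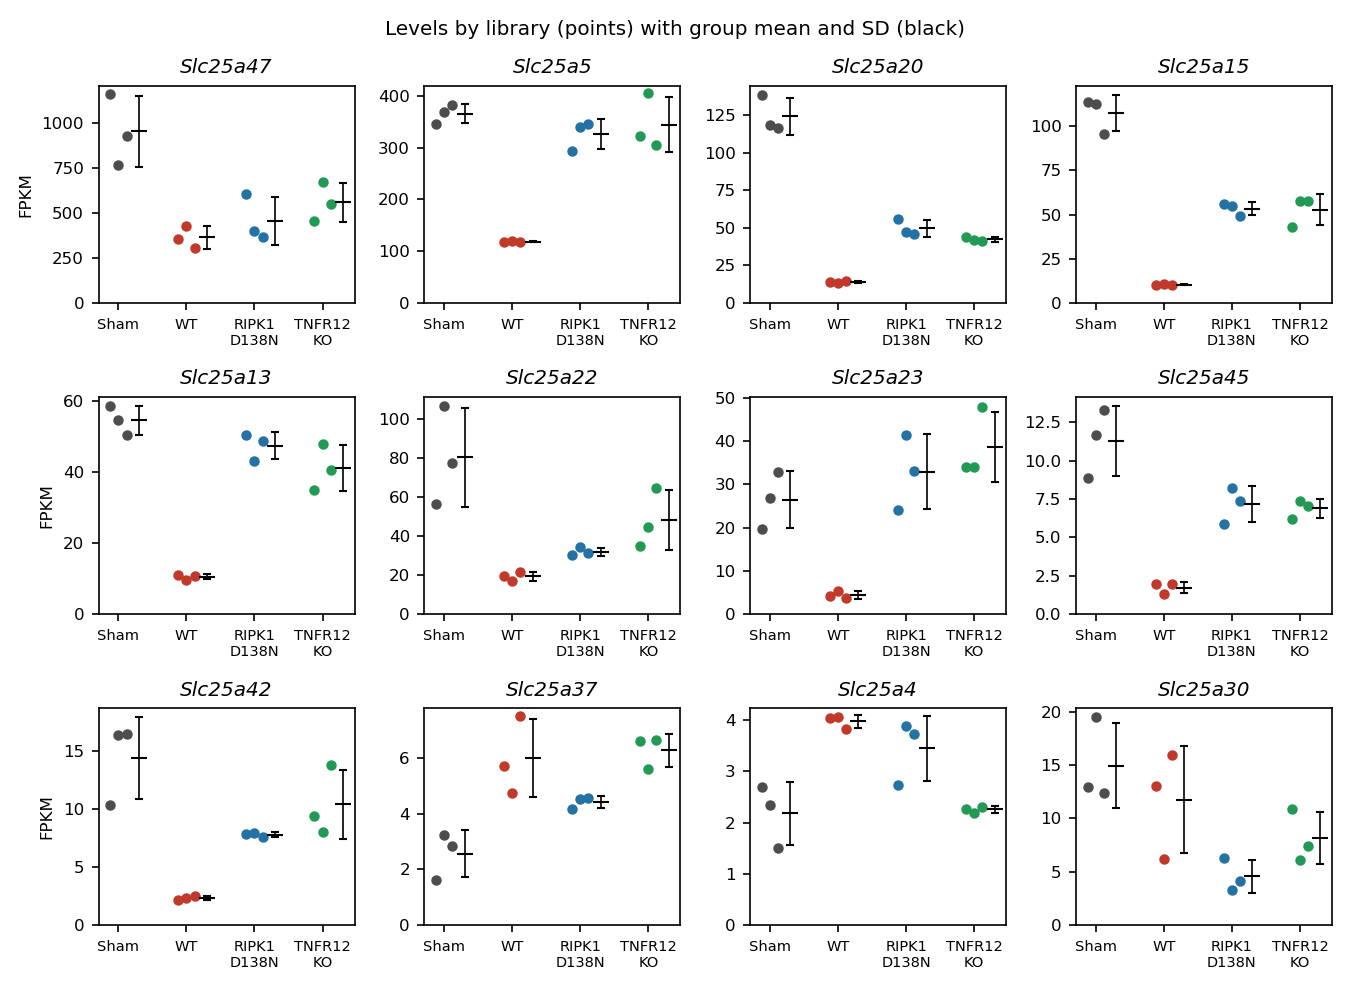
FPKM of 12 members in each library (points, coloured by group) with the group mean and SD (black); each axis starts at 0. The WT points of Slc25a5, Slc25a20, Slc25a15, Slc25a13 and Slc25a23 lie below all others, the mutant points of Slc25a45 lie between WT and Sham, and Slc25a37 and Slc25a4 are higher in WT than in Sham.

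The malate-aspartate shuttle moves reducing equivalents of NADH into mitochondria. Its carriers and the glutamate carriers made 5 members, 4 of which were tested, and all 4 fell in WT. Slc25a13 (chr6:6041218-6217173, minus strand), citrin, exchanges aspartate for glutamate and also supplies aspartate to the urea cycle. It stood at 58.5, 54.7 and 50.3 FPKM in Sham, 11.1, 9.66 and 10.6 FPKM in WT, 50.4, 43.2 and 48.6 FPKM in RIPK1_D138N and 34.9, 47.7 and 40.5 FPKM in TNFR12_KO. WT lay below every other group with a difference of -2.28 ± 0.15 (SE; adjusted p = 2.24e-07) against Sham. It was higher than WT in RIPK1_D138N by 2.08 ± 0.15 (SE; adjusted p = 8.89e-07) and in TNFR12_KO by 1.87 ± 0.15 (SE; adjusted p = 1.89e-06). Neither mutant was called against Sham (-0.20, adjusted p = 0.352, and -0.41, adjusted p = 0.0681). Its paralogue Slc25a12, aralar, the main form of brain and muscle, was lower in level, at 4.86 ± 0.738 FPKM in Sham, 1.97 ± 0.299 FPKM in WT, 3.33 ± 0.391 FPKM in RIPK1_D138N and 3.37 ± 0.734 FPKM in TNFR12_KO (SD, n = 3). The share of Slc25a12 in their sum was 7.58 to 8.73% in Sham, 13.5 to 17.9% in WT, 5.46 to 7.37% in RIPK1_D138N and 5.86 to 9.78% in TNFR12_KO, so that the WT range lay above the rest. The fall of Slc25a12 in WT was lost when scaled to equal sums (-0.04, adjusted p = 0.89).

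Slc25a11 exchanges oxoglutarate for malate in the same shuttle. It stood at 29.4, 33.2 and 29.7 FPKM in Sham, 11.1, 10.8 and 12.4 FPKM in WT, 27.02, 39.5 and 36.7 FPKM in RIPK1_D138N and 26.9, 38.8 and 27.8 FPKM in TNFR12_KO. WT was the low group, at -1.35 ± 0.18 (SE; adjusted p = 4.5e-05) against Sham, a call lost when scaled to equal sums (-0.16, adjusted p = 0.493), and both mutants overlapped Sham. RIPK1_D138N was higher than WT by 1.49 (adjusted p = 2.74e-05) and TNFR12_KO by 1.35 (adjusted p = 6.73e-05). Slc25a22, which carries glutamate with a proton, stood at 56.7, 107 and 77.7 FPKM in Sham, 19.4, 17.1 and 21.4 FPKM in WT, 30.4, 34.4 and 31.5 FPKM in RIPK1_D138N and 34.9, 44.9 and 64.9 FPKM in TNFR12_KO. Here the mutants lay between WT and most Sham values. The difference was -1.96 ± 0.25 (SE; adjusted p = 2.4e-05) in WT, -1.25 (adjusted p = 0.00272) in RIPK1_D138N and -0.72 (adjusted p = 0.0467) in TNFR12_KO against Sham. Against WT the call of RIPK1_D138N (0.70, adjusted p = 0.029) was lost in 4 of the 6 fits that left out 1 library, and its sign turned when scaled to equal sums (-0.04). It was also lost with median-of-ratios scaling (0.555, adjusted p = 0.0718) and quantile normalization (0.20, adjusted p = 0.543). Without the Xist-positive libraries the difference was 0.63. The TNFR12_KO difference from WT was 1.24 (adjusted p = 0.00121), a call lost when scaled to equal sums (0.55, adjusted p = 0.122). Against Sham the call of TNFR12_KO was lost under all 4 scalings (-0.20 to -0.59) and that of RIPK1_D138N when scaled to equal sums (-0.78, adjusted p = 0.0744).

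Slc25a15 (chr8:22375551-22398597, minus strand) brings ornithine into the matrix for the urea cycle. It stood at 113, 113 and 95.6 FPKM in Sham, 10.4, 10.7 and 9.93 FPKM in WT, 55.9, 54.9 and 49.5 FPKM in RIPK1_D138N and 42.7, 57.7 and 57.9 FPKM in TNFR12_KO. The groups Sham and WT did not overlap with each other or with the mutants, and both mutants lay between them. WT was lower than Sham with a difference of -3.25 ± 0.16 (SE; adjusted p = 1.87e-08), the lowest of all members in this comparison. Against WT, RIPK1_D138N was higher by 2.26 ± 0.16 (SE; adjusted p = 7.03e-07) and TNFR12_KO by 2.23 ± 0.16 (SE; adjusted p = 6.76e-07). Both stayed lower than Sham with a difference of -0.99 (adjusted p = 0.000814) and -1.02 (adjusted p = 0.00074), with means of 49.8% and 49.2% of the Sham mean against 9.67% in WT. The call of RIPK1_D138N against Sham was kept without the Xist-positive libraries (-0.92, adjusted p = 0.0388). Neither mutant's call against Sham was kept under all 4 scalings. Slc25a29, a carrier of basic amino acids, stood at 1.55 ± 0.459 FPKM in Sham, 0.488 ± 0.262 FPKM in WT, 1.02 ± 0.402 FPKM in RIPK1_D138N and 1.35 ± 0.1895 FPKM in TNFR12_KO (SD, n = 3) and was lower in WT with a difference of -0.78 (adjusted p = 0.00439), a call lost when scaled to equal sums (-0.30, adjusted p = 0.361) and with the length trend removed (-0.26, adjusted p = 0.298).

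Slc25a20 (chr9:108662088-108684641, plus strand) exchanges acylcarnitine for carnitine, the step by which long-chain fatty acids enter the matrix. It stood at 138.1, 118 and 116 FPKM in Sham, 13.8, 13.02 and 14.7 FPKM in WT, 55.9, 47 and 45.9 FPKM in RIPK1_D138N and 44.1, 41.96 and 41.1 FPKM in TNFR12_KO. No group overlapped with another, and RIPK1_D138N and, below it, TNFR12_KO lay between Sham and WT, though the mutants were not called against each other (0.22, adjusted p = 0.619). WT was lower than Sham with a difference of -3.07 ± 0.14 (SE; adjusted p = 1.4e-08). RIPK1_D138N and TNFR12_KO were higher than WT by 1.77 ± 0.14 (SE; adjusted p = 1.55e-06) and 1.55 ± 0.14 (SE; adjusted p = 4e-06). They remained lower than Sham with a difference of -1.31 ± 0.14 (SE; adjusted p = 7.56e-05) and -1.52 ± 0.14 (SE; adjusted p = 2.3e-05), and these calls held under all 4 scalings. The mutant means were 40.0% and 34.2% of the Sham mean.

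**Figure D4:**
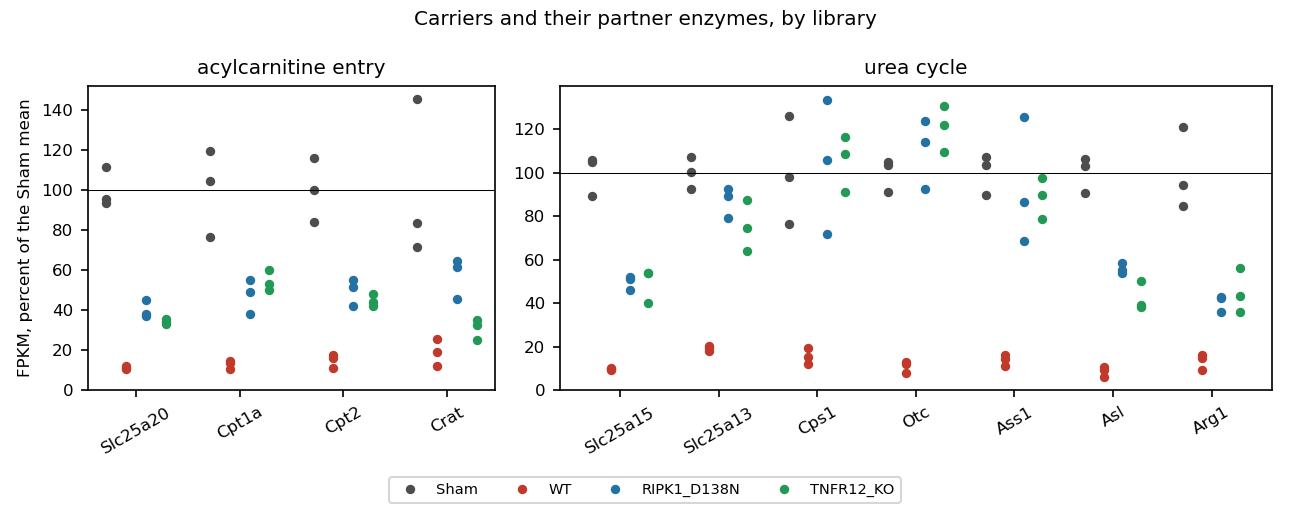
FPKM by library as a percent of the Sham mean, for the acylcarnitine carrier with carnitine acyltransferases (left) and for 2 urea cycle carriers with the 5 urea cycle enzymes (right); the line marks 100%. WT points lie lowest for every gene shown but Crat, where WT and TNFR12_KO meet, and the mutant points of Slc25a20, Cpt1a, Cpt2, Slc25a15, Asl and Arg1 lie between WT and Sham while those of Cps1 and Otc reach Sham.

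Enzymes that work with these carriers were read from lists made by role. Cpt1a and Cpt2 form and release the acylcarnitines that Slc25a20 carries, and Crat acts on short chains. Cpt1a stood at 82.8 ± 18.03 FPKM in Sham, 10.6 ± 1.83 FPKM in WT, 39.1 ± 7.17 FPKM in RIPK1_D138N and 44.98 ± 4.24 FPKM in TNFR12_KO (SD, n = 3), and Cpt2 at 93.5 ± 14.9 FPKM in Sham, 13.8 ± 3.16 FPKM in WT, 46.3 ± 6.17 FPKM in RIPK1_D138N and 41.8 ± 2.83 FPKM in TNFR12_KO (SD, n = 3). Both were lower in WT (-2.85, adjusted p = 3.38e-07, and -2.68, adjusted p = 3.41e-07), and both were lower than Sham in RIPK1_D138N (-1.05, adjusted p = 0.00254, and -0.99, adjusted p = 0.00254) and in TNFR12_KO (-0.85, adjusted p = 0.00981, and -1.13, adjusted p = 0.00135). All 5 urea cycle enzymes were lower in WT and all 5 were higher than WT in each mutant. Otc, which uses the ornithine that Slc25a15 delivers, stood at 158 ± 12 FPKM in Sham, 17.03 ± 4.33 FPKM in WT, 174 ± 25.3 FPKM in RIPK1_D138N and 191 ± 17.1 FPKM in TNFR12_KO (SD, n = 3), and neither mutant was called against Sham. Arg1, arginase, stood at 2125 ± 403 FPKM in Sham, 283 ± 79.9 FPKM in WT, 859 ± 81 FPKM in RIPK1_D138N and 959.5 ± 219 FPKM in TNFR12_KO (SD, n = 3) and was lower than Sham in RIPK1_D138N (-1.29, adjusted p = 0.00259) and in TNFR12_KO (-1.15, adjusted p = 0.00575). All 4 malate-aspartate shuttle enzymes (Got1, Got2, Mdh1 and Mdh2) were lower in WT. Over the 43 partner enzymes and other mitochondrial transporters, 41 were tested, of which 32 were lower and 2 higher in WT than in Sham. Of all genes, 41.9% were lower and 16.4% higher. The 2 listed genes that rose were Gclc and Gsr, enzymes of glutathione synthesis and reduction. In RIPK1_D138N 30 of the 41 were higher and 2 lower than WT, where 29.8% of all genes were higher and 21.9% lower. In TNFR12_KO 29 were higher and 1 lower, where 29.6% of all genes were higher and 17.5% lower. These lists were not counted under the other scalings.

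Citrate, dicarboxylate and oxodicarboxylate carriers made 3 members, and all 3 were lower in WT. Slc25a1, which exports citrate for fatty acid synthesis, stood at 71.1, 72.7 and 97.9 FPKM in Sham, 41.3, 35.8 and 49.99 FPKM in WT, 75.1, 92.5 and 77.8 FPKM in RIPK1_D138N and 67.8, 98.9 and 88.5 FPKM in TNFR12_KO. WT was below all other libraries with a difference of -0.91 ± 0.20 (SE; adjusted p = 0.00162) against Sham, a call lost with the length trend removed (-0.30, adjusted p = 0.175) and a sign that turned under quantile normalization (0.15) and under scaling to equal sums (0.33). Mutant and Sham ranges overlapped. Slc25a10, which exchanges malate or succinate for phosphate, stood at 46.4, 60.7 and 63.2 FPKM in Sham, 19.8, 24.7 and 21.5 FPKM in WT, 55.1, 60.1 and 48.8 FPKM in RIPK1_D138N and 65.03, 83.02 and 92.5 FPKM in TNFR12_KO. WT was lower than Sham with a difference of -1.32 ± 0.18 (SE; adjusted p = 5.11e-05), a call lost when scaled to equal sums (-0.10, adjusted p = 0.693). RIPK1_D138N and TNFR12_KO were higher than WT by 1.27 (adjusted p = 8.79e-05) and 1.81 (adjusted p = 6.98e-06). All 3 TNFR12_KO values exceeded all 3 Sham values, though the difference was not called (0.49, adjusted p = 0.0658). Slc25a21, which carries oxoadipate and oxoglutarate, stood at 5.402, 5.19 and 5.09 FPKM in Sham, 0.356, 1.15 and 0.596 FPKM in WT, 5.99, 6.17 and 7.21 FPKM in RIPK1_D138N and 6.02, 7.601 and 6.62 FPKM in TNFR12_KO. WT was lower with a difference of -1.90 ± 0.18 (SE; adjusted p = 2.33e-06), at a mean of 13.4% of that in Sham. The mutant means were 124% of Sham for RIPK1_D138N and 129% for TNFR12_KO, with all values above all Sham values, though neither difference was called (0.26, adjusted p = 0.29, and 0.31, adjusted p = 0.212). Both mutants were higher than WT (2.16, adjusted p = 1.61e-06, and 2.21, adjusted p = 1.61e-06). Acly, which cleaves the exported citrate, went another way: 10.3 ± 1.92 FPKM in Sham, 13.5 ± 4.11 FPKM in WT, 57.4 ± 42.7 FPKM in RIPK1_D138N and 45.5 ± 17.8 FPKM in TNFR12_KO (SD, n = 3). It was not called in WT against Sham and was higher than Sham in RIPK1_D138N (2.06, adjusted p = 0.00915) and TNFR12_KO (1.98, adjusted p = 0.0131). In RIPK1_D138N it was at 17.02 FPKM in replicate 1 and at 102 and 53.3 FPKM in the Xist-positive replicates 2 and 3.

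Cofactor carriers made 7 members, all tested, and 6 were lower in WT. Slc25a42, a carrier of coenzyme A, stood at 10.4, 16.4 and 16.5 FPKM in Sham, 2.19, 2.35 and 2.55 FPKM in WT, 7.901, 7.94 and 7.59 FPKM in RIPK1_D138N and 9.37, 8.07 and 13.8 FPKM in TNFR12_KO. It was lower in WT with a difference of -2.17 ± 0.21 (SE; adjusted p = 2.91e-06) and higher than WT in RIPK1_D138N by 1.39 (adjusted p = 0.000126) and in TNFR12_KO by 1.73 (adjusted p = 2.6e-05). Against Sham RIPK1_D138N was lower (-0.78, adjusted p = 0.0141), a call lost without Sham library b or c, without the Xist-positive libraries (-0.77, adjusted p = 0.149) or under each of the 4 scalings (-0.35 to -0.55), and TNFR12_KO was not called (-0.44, adjusted p = 0.137). Pank1, which starts coenzyme A synthesis, stood at 82.2 ± 5.09 FPKM in Sham, 14.9 ± 0.981 FPKM in WT, 49.99 ± 2.89 FPKM in RIPK1_D138N and 51.6 ± 3.65 FPKM in TNFR12_KO (SD, n = 3).

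Slc25a16, linked to mitochondrial coenzyme A, stood at 23.2, 19.1 and 19.99 FPKM in Sham, 7.54, 4.91 and 6.48 FPKM in WT, 12.7, 14.7 and 14.5 FPKM in RIPK1_D138N and 13.8, 16.2 and 18.4 FPKM in TNFR12_KO. Its WT values were the lowest and all mutant values were below all Sham values. Against Sham TNFR12_KO was not called (-0.35, adjusted p = 0.152) and RIPK1_D138N was lower (-0.54, adjusted p = 0.0334). The latter call was lost in all 6 fits that left out 1 library and under all 4 scalings (-0.08 to -0.29). Without the Xist-positive libraries that difference was -0.66. The WT difference from Sham was -1.59 ± 0.17 (SE; adjusted p = 7.67e-06), a call lost when scaled to equal sums (-0.46, adjusted p = 0.068), and those from WT were 1.05 (adjusted p = 0.000254) in RIPK1_D138N and 1.24 (adjusted p = 8.37e-05) in TNFR12_KO. When scaled to equal sums that of RIPK1_D138N was 0.38 (adjusted p = 0.126). Slc25a17, a carrier of coenzyme A and related nucleotides in the peroxisome membrane, stood at 30.5, 27.5 and 28.7 FPKM in Sham, 13.9, 12.2 and 13.2 FPKM in WT, 32.1, 19.8 and 23.2 FPKM in RIPK1_D138N and 34.1, 37.2 and 32.5 FPKM in TNFR12_KO. It was lower in WT with a difference of -1.08 ± 0.17 (SE; adjusted p = 0.000154), which turned to 0.12 when scaled to equal sums. RIPK1_D138N and TNFR12_KO were higher than WT by 0.86 (adjusted p = 0.00112) and 1.33 (adjusted p = 4.45e-05), and the call of RIPK1_D138N was lost when scaled to equal sums (0.13, adjusted p = 0.521). Slc25a51, the NAD carrier, was not called in any comparison, at 25.8 ± 3.23 FPKM in Sham, 20.6 ± 3.17 FPKM in WT, 16.8 ± 2.19 FPKM in RIPK1_D138N and 31.4 ± 13.8 FPKM in TNFR12_KO (SD, n = 3). Slc25a26, which carries S-adenosylmethionine, stood at 3.91 ± 0.745 FPKM in Sham, 1.597 ± 0.225 FPKM in WT, 2.12 ± 0.485 FPKM in RIPK1_D138N and 2.61 ± 0.408 FPKM in TNFR12_KO (SD, n = 3), and Slc25a32, which carries folate or FAD, at 4.998 ± 0.4101 FPKM in Sham, 3.56 ± 0.643 FPKM in WT, 4.56 ± 0.7901 FPKM in RIPK1_D138N and 4.47 ± 0.378 FPKM in TNFR12_KO (SD, n = 3). Their WT differences were -0.91 (adjusted p = 0.000631) and -0.40 (adjusted p = 0.0479), and that of Slc25a26 was lost when scaled to equal sums (-0.02, adjusted p = 0.948). That of Slc25a32 was lost in 5 of the 6 fits that left out 1 library, lost under the other 3 scalings (-0.01 to -0.27) and turned to 0.69 when scaled to equal sums.

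Iron, glycine and glutathione carriers made 5 members, all tested, and their WT differences were mixed, with 2 lower, 1 higher and 2 not called. Slc25a39, which imports glutathione, stood at 199, 229.8 and 267 FPKM in Sham, 79.3, 83.4 and 93.7 FPKM in WT, 159, 183 and 176 FPKM in RIPK1_D138N and 171, 214 and 186 FPKM in TNFR12_KO. WT was below all other libraries with a difference of -1.42 ± 0.17 (SE; adjusted p = 1.31e-05) against Sham, a call lost under quantile normalization (-0.16, adjusted p = 0.443) and when scaled to equal sums (-0.17, adjusted p = 0.381). RIPK1_D138N and TNFR12_KO were higher than WT by 1.01 (adjusted p = 0.000252) and 1.14 (adjusted p = 0.00011), and not called against Sham. Under quantile normalization the differences from WT were 0.03 (adjusted p = 0.901) and 0.25 (adjusted p = 0.227), and the call of RIPK1_D138N was also lost when scaled to equal sums (0.24, adjusted p = 0.22). Its paralogue Slc25a40 was low, at 1.24 ± 0.414 FPKM in Sham, 1.08 ± 0.506 FPKM in WT, 0.836 ± 0.262 FPKM in RIPK1_D138N and 1.04 ± 0.158 FPKM in TNFR12_KO (SD, n = 3), and was not called in any comparison. Slc25a38, which carries glycine for heme synthesis, stood at 9.71 ± 1.65 FPKM in Sham, 5.56 ± 1.28 FPKM in WT, 8.45 ± 0.575 FPKM in RIPK1_D138N and 7.22 ± 0.834 FPKM in TNFR12_KO (SD, n = 3) and was lower in WT with a difference of -0.71 (adjusted p = 0.00415), a call lost under the other 3 scalings (-0.22 to -0.38) and turned to 0.42 when scaled to equal sums. Alas1, the first enzyme of heme synthesis in liver, stood at 731 ± 314 FPKM in Sham, 84.8 ± 14.99 FPKM in WT, 316 ± 90.9 FPKM in RIPK1_D138N and 403 ± 156 FPKM in TNFR12_KO (SD, n = 3), and Fech, the last, at 29.9 ± 1.12 FPKM in Sham, 10.2 ± 0.399 FPKM in WT, 32.05 ± 2.99 FPKM in RIPK1_D138N and 32.3 ± 4.09 FPKM in TNFR12_KO (SD, n = 3). Both were lower in WT (-3.01, adjusted p = 2.14e-05, and -1.46, adjusted p = 3.72e-06).

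Slc25a37 and Slc25a28 are the iron importers mitoferrin 1, known from red cell precursors, and mitoferrin 2. Slc25a37 (chr14:69241848-69285112, minus strand) is named after its values were seen. It stood at 1.62, 3.23 and 2.83 FPKM in Sham, 5.73, 4.75 and 7.51 FPKM in WT, 4.16, 4.52 and 4.57 FPKM in RIPK1_D138N and 6.62, 5.59 and 6.63 FPKM in TNFR12_KO. All values of the ischemia arm exceeded all Sham values. WT was higher by 0.98 ± 0.20 (SE; adjusted p = 0.000971), RIPK1_D138N by 0.63 ± 0.20 (SE; adjusted p = 0.03) and TNFR12_KO by 1.06 ± 0.20 (SE; adjusted p = 0.0025), and these calls held under all 4 scalings. The RIPK1_D138N call was lost without the Xist-positive libraries (0.56, adjusted p = 0.259), without either of them alone, or without Sham library a (0.43, adjusted p = 0.0996). Slc25a28 stood at 10.2 ± 2.79 FPKM in Sham, 7.48 ± 1.54 FPKM in WT, 7.43 ± 1.26 FPKM in RIPK1_D138N and 9.17 ± 1.07 FPKM in TNFR12_KO (SD, n = 3) and was not called in any comparison. The share of Slc25a37 in their sum was 18.2 to 23.5% in Sham, 34.4 to 50.6% in WT, 34 to 40.9% in RIPK1_D138N and 37 to 45.4% in TNFR12_KO. Erythroid and blood markers summed to 166.5 to 316.9 FPKM in Sham, 79.9 to 152.6 FPKM in WT, 890.1 to 1767 FPKM in RIPK1_D138N and 964 to 2005 FPKM in TNFR12_KO, while the red cell gene Slc4a1 stayed below 1 FPKM in every library. Alas2, the heme synthesis enzyme of red cell precursors, stood at 51.1 ± 11 FPKM in Sham, 9.47 ± 2.48 FPKM in WT, 26.9 ± 27.1 FPKM in RIPK1_D138N and 52.3 ± 5.28 FPKM in TNFR12_KO (SD, n = 3). Its RIPK1_D138N values were 58.2 FPKM in replicate 1 and 12.4 and 10.2 FPKM in the Xist-positive replicates. In WT, Slc25a37 was thus higher while these markers were summed lower than in Sham. In the mutants both were higher, and the part of blood in that difference was not tested.

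**Figure D5:**
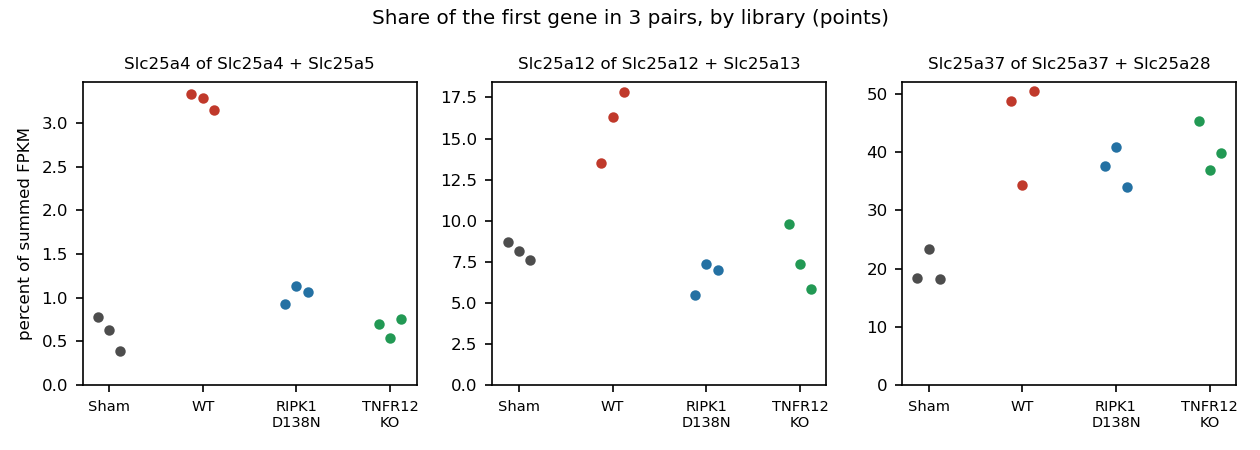
Percent of the summed FPKM of 3 gene pairs taken by the first gene of each pair, by library (points, coloured by group); the axes start at 0. WT points lie above all others for Slc25a4 (3.15 to 3.33%) and Slc25a12 (13.5 to 17.9%), and all points of the ischemia arm lie above Sham for Slc25a37.

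Uncoupling protein relatives made 3 members, and neither of the 2 tested was called in WT. Slc25a30, known from kidney, is named after its values were seen, as the 1 member called lower in RIPK1_D138N than in WT. It stood at 12.96, 19.5 and 12.4 FPKM in Sham, 13.1, 6.19 and 15.98 FPKM in WT, 6.31, 3.33 and 4.13 FPKM in RIPK1_D138N and 10.9, 6.14 and 7.44 FPKM in TNFR12_KO. The WT values spread widely, and WT library b was lower than RIPK1_D138N replicate 1. The difference was -1.13 ± 0.32 (SE; adjusted p = 0.00981) from WT and -1.52 ± 0.32 (SE; adjusted p = 0.00411) from Sham. Without WT library c the former was -0.88 (adjusted p = 0.0512). Without the Xist-positive libraries the differences were -0.71 from WT (adjusted p = 0.22) and -1.10 from Sham (adjusted p = 0.134). TNFR12_KO was not called against WT (-0.42, adjusted p = 0.297) or Sham (-0.81, adjusted p = 0.0795). Slc25a14 stood at 1.04 ± 0.2504 FPKM in Sham, 0.655 ± 0.415 FPKM in WT, 1.03 ± 0.142 FPKM in RIPK1_D138N and 1.12 ± 0.378 FPKM in TNFR12_KO (SD, n = 3). Of the uncoupling proteins outside the symbol rule, Ucp1 was listed at 0 throughout, and Ucp2 stood at 6.67 ± 0.877 FPKM in Sham, 6.58 ± 1.59 FPKM in WT, 9.13 ± 4.81 FPKM in RIPK1_D138N and 6.86 ± 2.08 FPKM in TNFR12_KO (SD, n = 3) and was not called.

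The remaining members have little known or disputed substrates. Slc25a47 (chr12:108836046-108856815, plus strand) stood at 1164, 769 and 931 FPKM in Sham, 356, 430.3 and 308 FPKM in WT, 609, 398 and 365 FPKM in RIPK1_D138N and 456, 674 and 552 FPKM in TNFR12_KO. WT lay below Sham with a difference of -1.38 ± 0.24 (SE; adjusted p = 0.000378), a call lost under quantile normalization (-0.05, adjusted p = 0.838) and when scaled to equal sums (-0.12, adjusted p = 0.662). Neither mutant was called against WT (0.30, adjusted p = 0.32, and 0.61, adjusted p = 0.0555), and both were lower than Sham (-1.08, adjusted p = 0.00635, and -0.77, adjusted p = 0.0378). The call of TNFR12_KO against Sham was lost without Sham library a (-0.61, adjusted p = 0.12), Sham library c, TNFR12_KO replicate 1 or TNFR12_KO replicate 3, and that of RIPK1_D138N without the Xist-positive libraries (-0.63, adjusted p = 0.239). The former was also lost under all 4 scalings (-0.23 to -0.56), and the latter with median-of-ratios scaling (-0.75, adjusted p = 0.0567) and when scaled to equal sums (-0.59, adjusted p = 0.0851). Slc25a45 stood at 8.85, 11.7 and 13.3 FPKM in Sham, 1.94, 1.29 and 1.95 FPKM in WT, 5.88, 8.24 and 7.397 FPKM in RIPK1_D138N and 6.21, 7.38 and 7.08 FPKM in TNFR12_KO. It was lower in WT with a difference of -2.16 ± 0.18 (SE; adjusted p = 1.21e-06), and the mutants were higher than WT (1.58, adjusted p = 1.8e-05, and 1.54, adjusted p = 2.6e-05). All mutant values were below all Sham values, at -0.58 (adjusted p = 0.0314) and -0.62 (adjusted p = 0.0267), calls lost without Sham library b or c, without replicate 1 or replicate 3 of the mutant concerned, and, for RIPK1_D138N, without the Xist-positive libraries (-0.82, adjusted p = 0.0804). Both were also lost under all 4 scalings (-0.15 to -0.33 and -0.15 to -0.41).

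Slc25a34, named after its values were seen for the depth of its fall, stood at 3.32, 3.56 and 2.37 FPKM in Sham, 0.233, 0.20 and 0.199 FPKM in WT, 0.1197, 0.692 and 0.7395 FPKM in RIPK1_D138N and 0.281, 0.261 and 0.275 FPKM in TNFR12_KO. Every library of the ischemia arm was below every Sham library with a difference of -1.74 ± 0.18 (SE; adjusted p = 6.07e-06) for WT, -1.44 ± 0.18 (SE; adjusted p = 0.000179) for RIPK1_D138N and -1.67 ± 0.18 (SE; adjusted p = 6.79e-05) for TNFR12_KO, and these calls held under all 4 scalings. Slc25a34 reached 1 FPKM only in Sham, so it passed the filter only through the group where it was high. Its calls against Sham are therefore no independent support for the fall. It was not tested when a Sham library was left out. Its lowest value corresponds to about 7.0 fragments. Neither mutant was called against WT. Slc25a46, an outer membrane protein with a role in mitochondrial shape, stood at 6.77 ± 0.127 FPKM in Sham, 4.05 ± 0.921 FPKM in WT, 6.01 ± 0.195 FPKM in RIPK1_D138N and 5.58 ± 0.175 FPKM in TNFR12_KO (SD, n = 3). Its WT difference of -0.64 (adjusted p = 0.00317) was lost with median-of-ratios scaling (-0.24, adjusted p = 0.16) and turned to 0.45 when scaled to equal sums. Slc25a48, reported to carry choline, stood at 0.939 ± 0.509 FPKM in Sham, 0.327 ± 0.143 FPKM in WT, 1.15 ± 0.163 FPKM in RIPK1_D138N and 1.77 ± 0.112 FPKM in TNFR12_KO (SD, n = 3). It was lower in WT than in Sham with a difference of -0.52 (adjusted p = 0.03), a call lost under 3 of the 4 scalings (-0.13 to -0.34) and in 4 of the 6 fits that left out 1 library. TNFR12_KO was higher than Sham by 0.55 (adjusted p = 0.0473), a call lost in 5 of the 6 such fits of that comparison. It was higher than WT in RIPK1_D138N (0.70, adjusted p = 0.00755) and in TNFR12_KO (1.07, adjusted p = 0.000479). The call of RIPK1_D138N was lost without the Xist-positive libraries (0.71, adjusted p = 0.063). Slc25a33, a pyrimidine nucleotide carrier, stood at 23.6 ± 5.2 FPKM in Sham, 14.3 ± 2.29 FPKM in WT, 13.8 ± 8.09 FPKM in RIPK1_D138N and 15.3 ± 1.89 FPKM in TNFR12_KO (SD, n = 3) and was called only in RIPK1_D138N against Sham (-0.85, adjusted p = 0.0483), a call lost under all 4 scalings (-0.40 to -0.62), with -0.02 (adjusted p = 0.977) without the Xist-positive libraries. Slc25a44, a branched-chain amino acid carrier, stood at 8.35 ± 2.48 FPKM in Sham, 5.7 ± 1.88 FPKM in WT, 8.298 ± 2.84 FPKM in RIPK1_D138N and 9.595 ± 2.73 FPKM in TNFR12_KO (SD, n = 3) and was not called in any comparison.

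Transporters outside the symbol rule gave a background of like function. Mpc1 and Mpc2 form the pyruvate carrier of the inner membrane. Mpc2 stood at 216 ± 55.4 FPKM in Sham, 50.7 ± 13.2 FPKM in WT, 330.0 ± 55.2 FPKM in RIPK1_D138N and 208 ± 62.8 FPKM in TNFR12_KO (SD, n = 3), and was lower in WT with a difference of -2.07 (adjusted p = 3.04e-05). Of 15 tested transporters of the mitochondrial membranes, 13 were lower in WT and 0 higher, where 41.9% of all genes were lower and 16.4% higher. Higher than WT were 10 in RIPK1_D138N and 9 in TNFR12_KO, where 29.8% and 29.6% of all genes were higher. The exceptions in WT were Vdac1, the main pore of the outer membrane, at 76.6 ± 10.9 FPKM in Sham, 60.7 ± 4.43 FPKM in WT, 80.8 ± 13.4 FPKM in RIPK1_D138N and 74.3 ± 5.35 FPKM in TNFR12_KO (SD, n = 3), and Mcu, the calcium channel, at 2.69 ± 1.01 FPKM in Sham, 3.296 ± 0.8504 FPKM in WT, 2.13 ± 0.569 FPKM in RIPK1_D138N and 1.95 ± 0.364 FPKM in TNFR12_KO (SD, n = 3). Vdac3 was lower than Sham with a difference of -0.81 (adjusted p = 0.000747) in the WT libraries, -0.77 (adjusted p = 0.00361) in RIPK1_D138N and -0.82 (adjusted p = 0.00288) in TNFR12_KO. Among 7 tested genes that regulate mitochondrial gene expression or fuel use, 2 fell and 2 rose in WT. Of all genes, 41.9% were lower and 16.4% higher. Besides Ppara and Myc, Esrra fell (-0.70, adjusted p = 0.00359) and Nrf1 rose (0.95, adjusted p = 0.000448). Ppara, a nuclear receptor that drives fatty acid oxidation genes, stood at 23.2 ± 5.53 FPKM in Sham, 9.05 ± 1.77 FPKM in WT, 13.6 ± 2.07 FPKM in RIPK1_D138N and 17.7 ± 3.63 FPKM in TNFR12_KO (SD, n = 3) and fell with a difference of -1.26 (adjusted p = 0.00024). Myc, a transcription factor that binds E-boxes, rose, at 3.37 ± 0.761 FPKM in Sham, 52.2 ± 6.09 FPKM in WT, 13.5 ± 1.81 FPKM in RIPK1_D138N and 27.4 ± 9.38 FPKM in TNFR12_KO (SD, n = 3) with 3.62 (adjusted p = 2.12e-07).

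Of 4 pairs of neighbouring members, 3 differed in level and 1 was low in both genes. Slc25a29 and Slc25a47 lie 162 bases apart on chromosome 12 and stood at 1.55 and 955 FPKM in Sham. Slc25a41, listed at 0 throughout, lies 2056 bases from Slc25a23 on chromosome 17. Slc25a43, at 0.0937 FPKM or less in every library, lies 18448 bases from Slc25a5 on chromosome X. Slc25a54, listed at 0 throughout, and Slc25a24, at most at 0.923 FPKM, lie 6461 bases apart on chromosome 3. No source used here states the counting strand. It matters where genes overlap, and 14 of the 47 members share exon bases with another annotated gene. Of these only Slc25a33 (14.9%) and Slc25a35 (31.3%) share more than 10% of their exon bases. Slc25a5 has 1 listed pseudogene, Slc25a5-ps, at a mean of 0.608 FPKM, and fragments could be split between such copies.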

How the data were processed

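Total liver RNA was extracted with Trizol and sequenced from NEB RNA Ultra libraries, per the labels' protocols. The authors deposited FPKM values per gene. STAR 2.5.4a, Cufflinks 2.2.1, Cuffdiff and the build mm10 are named, per the submitters' processing notes, without their roles. Columns of WT and Sham match only a group, so their libraries are lettered a to c. From the FPKM, limma 3.58.1 in R 4.3.3 modelled log2(FPKM + 1) as 4 group means over 12 libraries, letting the variance follow the mean. A gene had to reach 1 FPKM in 3 or more libraries, which kept 11728 of 53796 genes for 6 comparisons. Benjamini-Hochberg adjustment covered all genes tested within each comparison, not the 6 comparisons together, and genes were called at an adjusted p under 0.05. The added 1 makes differences of low genes look smaller than they are. The procedure was tested on simulated data.

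The members, gene lists and tests were chosen with earlier results of these data known. A member was shown in every library if it was called in WT against Sham and a group mean reached 10 FPKM, if it was called between the mutants, or if its group means differed by at least 4 times with at least 5 FPKM. Slc25a4, Slc25a30, Slc25a34 and Slc25a37 were added after their values were seen. Of the tested members and the markers, 1 each is counted but not reported here. Coordinates are from GENCODE M21, which lists 53616 of the gene identifiers. Promoters are from RefSeq. RIPK1_D138N and TNFR12_KO share replicate numbers, and same-numbered libraries did not deviate together.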

Additional observations from a re-analysis of the deposited data

Results flagged for a closer look

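No carrier met a rule for a closer look. Among partner and marker genes, 3 differed between RIPK1_D138N and TNFR12_KO, by limma's test of that difference. Gclc, the catalytic subunit of the enzyme that starts glutathione synthesis, was lower in RIPK1_D138N with a difference of -0.85 (adjusted p = 0.046), at 30.7 ± 2.27 against 56.3 ± 5.32 FPKM (SD, n = 3). Dcn and Lrat, which mark stellate cells and fibroblasts, were higher in RIPK1_D138N by 1.09 (adjusted p = 0.0319) and 1.30 (adjusted p = 0.0352). Dcn stood at 119 ± 3.62 against 56.1 ± 13.9 FPKM, and Lrat at 3.302 ± 1.43 against 0.716 ± 0.487 FPKM. Of the 6 tested genes of that marker list only these 2 were called. Reln (0.88, adjusted p = 0.224) was not, and Col1a1 had the other sign (-0.21, adjusted p = 0.87). Lrat was at 1.65 FPKM in RIPK1_D138N replicate 1 and at 4.12 and 4.14 FPKM in the Xist-positive replicates. Its value in TNFR12_KO replicate 1 was 1.27 FPKM. Serpina1c, listed at 0 in every TNFR12_KO library, was left out here because such a 0 can be a failed estimate.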

How the results depend on the processing

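Leaving out 1 library at a time, counts of members higher and lower ran from 2 to 2 and 23 to 26 in WT vs Sham, 17 to 22 and 0 to 2 in RIPK1_D138N vs WT, 18 to 23 and 1 to 2 in TNFR12_KO vs WT, 0 to 2 and 7 to 11 in RIPK1_D138N vs Sham, 1 to 2 and 3 to 8 in TNFR12_KO vs Sham, and 0 to 0 and 0 to 1 between the mutants. Of 11451 to 11662 genes tested, those higher and lower ran from 1399 to 1913 and 4371 to 4630 in WT vs Sham. Against WT they ran from 2977 to 3354 and 1781 to 2571 in RIPK1_D138N, and 2939 to 3199 and 1311 to 2071 in TNFR12_KO. Against Sham they ran from 524 to 1102 and 1721 to 2472 in RIPK1_D138N, and 546 to 709 and 1311 to 1911 in TNFR12_KO. Between the mutants they ran from 15 to 274 and 11 to 310. Without a Sham library 35 members were tested. Calls of members kept in every such fit were 26 of 29, 16 of 22, 19 of 23, 8 of 14 and 5 of 9 in the first 5 comparisons. Slc25a34, counted as kept in the comparisons with Sham, was tested only in the 3 fits of each that held all Sham libraries. A lone library was assumed to vary like the other groups.

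Scaling to equal FPKM sums and removing a length trend were chosen after seeing the data. Scaled to equal sums, members higher and lower were 8 and 11 in WT vs Sham, 11 and 9 in RIPK1_D138N vs WT, 15 and 5 in TNFR12_KO vs WT, 3 and 4 in RIPK1_D138N vs Sham, and 7 and 3 in TNFR12_KO vs Sham. With this scaling 39 members were tested, and of all genes 14.2% were higher and 4.91% lower in RIPK1_D138N vs Sham. In TNFR12_KO vs Sham 17.7% were higher and 3.52% lower. Members lower than WT in RIPK1_D138N were 2 with median-of-ratios scaling, 3 with quantile normalization and 2 with the length trend removed. Of all genes, 28.5%, 28% and 25.9% were lower there. Against Sham, members lower in RIPK1_D138N were 6, 7 and 7 of 36 under these settings, where 10.2%, 11.5% and 12.8% of all genes were lower. In TNFR12_KO both higher and lower counts were 4 of 36. Of all genes, 11%, 9.57% and 12.6% were higher there, and 9.01%, 10.1% and 11.7% lower. The TNFR12_KO counts were thus of the size of the background. Without a filter, 45 members and 27155 genes were tested. Members higher in WT vs Sham were then 4, and members lower than WT were 2 in each mutant. Members higher than Sham were 1 in each mutant. Among all genes, 2738 were higher in WT vs Sham. Lower than WT were 3055 in RIPK1_D138N and 2493 in TNFR12_KO, and higher than Sham were 921 and 730. With at least 5 FPKM in 3 libraries, 27 members and 6885 genes were tested. Then 1 member was higher in WT vs Sham, where 881 genes were. Lower than WT were 1 in RIPK1_D138N and 0 in TNFR12_KO, where 1352 and 1044 genes were. Higher than Sham was 1 in each mutant, where 504 and 538 genes were. Pseudocounts of 0.1 and 0.5 each left 1 member higher in TNFR12_KO vs Sham, where 910 and 887 of 11728 genes were higher. Fits of only the 2 groups left 0 higher in RIPK1_D138N vs Sham, and 1 higher and 4 lower in TNFR12_KO vs Sham. Of 11728 genes, 632 were higher in the former, and 773 higher and 1545 lower in the latter. Without the Xist-positive libraries, 0 were lower in RIPK1_D138N vs WT, and 0 higher and 5 lower in RIPK1_D138N vs Sham.

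Signs turned when scaled to equal sums for Slc25a1 (0.33), Slc25a3 (0.084), Slc25a17 (0.12), Slc25a25 (0.28), Slc25a32 (0.69), Slc25a38 (0.42) and Slc25a46 (0.45) in WT vs Sham, for Slc25a12 (-0.01), Slc25a22 (-0.039), Slc25a38 (-0.14) and Slc25a46 (-0.17) in RIPK1_D138N vs WT, and for Slc25a26 (-0.017) and Slc25a46 (-0.22) in TNFR12_KO vs WT. Under quantile normalization they turned for Slc25a1 (0.15), Slc25a3 (0.12) and Slc25a25 (0.06) in WT vs Sham, and for Slc25a3 in RIPK1_D138N vs WT (-0.23) and TNFR12_KO vs WT (-0.17). The cause of these changes was not tested.

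Replicate numbers shared by RIPK1_D138N and TNFR12_KO did not pair libraries: correlations of same-numbered deviations were -0.10, -0.20 and 0.06. With a replicate block, 0 members were higher and 0 lower between the mutants, and 7 and 4 of all genes against 41 and 68 without it. For the other comparisons no paired analysis was possible because the WT and Sham columns carry no number. FPKM gives no counts, so depth limits low members: the 11 untested members rest on 480.0 fragments or fewer in any library by the step estimate.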
